A study of Cricetulus griseus with 6 samples.

Results

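The genes described are growth factors and growth factor receptors outside the ErbB family: the ligands *Hgf*, *Pdgfa* and *Fgf2* and the receptor tyrosine kinases *Met*, *Axl*, *Pdgfra*, *Pdgfrb*, *Fgfr1*, *Igf1r* and *Insr*. They were chosen by gene symbol, and all 10 were found among the 27873 rows of the expression files. The CHO-T line derives from the Chinese hamster ovary and was infected with a retrovirus carrying mouse T-cadherin (Cdh13) cDNA, then selected with puromycin. Both groups thus carry the transgene, and the level under its symbol differs between them, as given below. RNA was collected 48 h after the cells were given negative control siRNA (n = 3) or siRNA against *Xbp1* (n = 3), and the libraries served to ask which genes change in XBP1-depleted cells, in a study of how endoplasmic reticulum stress lowers vesicle release. The labels give ovary as the tissue of origin and do not say whether the 3 samples of a group came from separate cultures, while the study's methods speak in general of independent experiments; p-values measure the spread between these samples, which may be technical. Expression is given in FPKM (fragments per kilobase of transcript, scaled to the mapped fragments of the library), a level per length that can be compared between genes.

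Receptor tyrosine kinases are cell surface proteins that act in pairs. When a ligand binds they phosphorylate one another and recruit adaptors that feed the RAS and PI3K pathways. HGF is made as an inactive precursor, is cut by serine proteases such as matriptase, and binds MET, a receptor known for driving scattering and migration of epithelial cells. These receptors, most of their ligands and their processing enzymes fold and mature in the endoplasmic reticulum, the compartment whose stress response includes XBP1.

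The silencing was checked first. *Xbp1* had 26.0, 26.2 and 28.4 FPKM in control replicates 1, 2 and 3 and 2.18, 2.11 and 1.39 FPKM in the replicates with *Xbp1* siRNA, a reduction of 93.0% (adjusted p = 5.61e-06, limma). *Cdh13*, the symbol of the transgene, named after its values were seen, fell from a mean of 85.2 to 32.9 FPKM (adjusted p = 7.96e-07, limma). The control libraries summed to between 646651 and 666267 FPKM, with 15109 to 15185 rows above 0. Those with *Xbp1* siRNA summed to between 593487 and 600986 FPKM, with 15371 to 15545 rows above 0. The part of this difference in the values below was not tested. Read totals are unknown, but the steps between low values gave depths of 94.0% to 116% of that of control replicate 1. Of the fixed cell type markers, fibroblast-like genes summed to 405 to 429 FPKM with control siRNA and 337 to 364 FPKM with *Xbp1* siRNA, with *Col1a1*, *Col1a2* and *Thy1*, 3 of 6, at 0. Most of that sum is *Vim*, which fell from 377 to 304 FPKM, while *Fn1* of the same list rose from 13.1 to 23.3 FPKM. Both were singled out after their values were seen. Epithelial markers, 3 of 5 of which were matched, summed to 1.83 to 2.16 FPKM and 4.59 to 5.79 FPKM, with *Krt18* at 0. Granulosa cell markers, 3 of 5 matched, summed to 2.99 to 3.96 and 3.15 to 4.76 FPKM with *Fshr* at 0, endothelial markers to 0.449 to 0.964 and 0.355 to 0.386 FPKM with *Cdh5* at 0, and leukocyte markers to 5.18 to 6.31 and 6.99 to 8.80 FPKM with *Ptprc* and *Cd3e* at 0. The part of the marker shifts in the values below was not tested.

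After *Xbp1* silencing the receptors moved in both directions. *Hgf*, *Met*, *Pdgfra* and *Fgfr1* rose, and *Igf1r*, *Axl*, *Pdgfrb* and *Insr* fell, each at an adjusted p under 0.05 from limma. *Pdgfa* did not pass the test, and *Fgf2*, a ligand of FGFR1, was listed at 0 in all 6 libraries and was not tested. So were 10274 of the 27873 rows, and whether such a 0 means absence was not tested. Of the 9 tested genes, 4 rose and 4 fell, where 20.2% of the 14361 genes tested rose and 20.2% fell. The genes and the lists below were chosen with earlier results of these data known, so such counts are no test of the set. *Fgfr1* no longer passed in 7 of 14 alternative settings, given with its values below, and the others of the 8 passed in all. The level matters for such a share, since of 9700 genes with a mean of 3 to 200 FPKM, a band chosen after the values were seen, 24.7% rose and 25.4% fell. In the same 8 genes the libraries of the groups did not overlap, 4 being higher and 4 lower, against 26.1% and 25.8% of all genes tested. For a single gene an exact permutation test of 3 libraries against 3 cannot go below p = 0.1.

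The sizes were mostly below 2-fold. Counted as called when the log2 fold change was also at least 1 in size, 1 gene, *Hgf*, was higher, as were 2.69% of all genes, and 0 were lower, as were 2.5% of all genes. No further gene had an unadjusted p under 0.05, at which 4 were higher and 4 lower by limma, the tool used. The share of all genes at that limit was not computed, here or for the lists below. The median log2 fold change of the 9 genes was 0.18 and the median of its size 0.65, beside 0.01 and 0.27 over all genes tested. RNA was taken from bulk cultures, in which a different number of expressing cells and a different level per cell cannot be told apart.

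**Figure D1:**
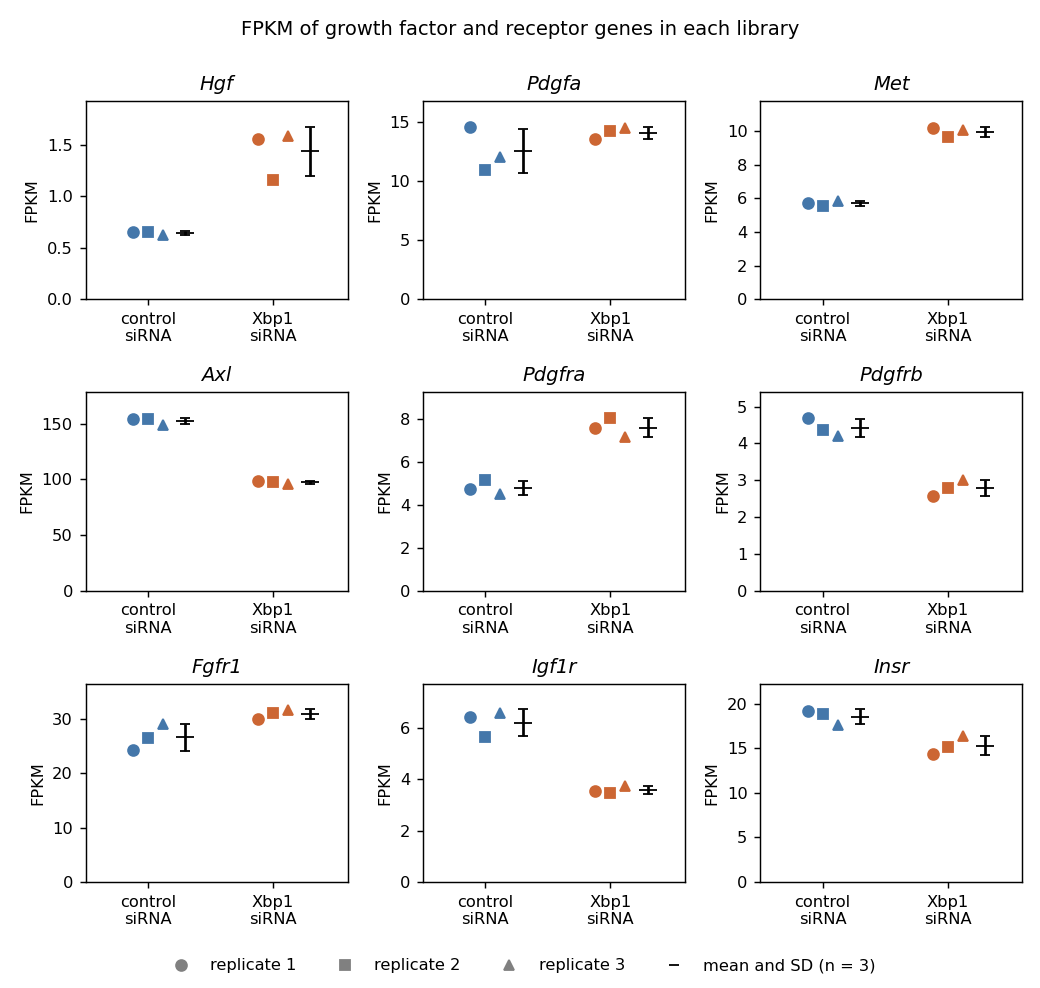
FPKM (linear axes from 0) of the 9 tested genes in each library with control siRNA (blue) and *Xbp1* siRNA (orange), with markers for replicates and black bars for the mean and SD (n = 3). The groups are apart in every panel but that of *Pdgfa*; for *Hgf* the controls lie between 0.623 and 0.655 FPKM and the *Xbp1* siRNA libraries between 1.16 and 1.59 FPKM.

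**Figure D2:**
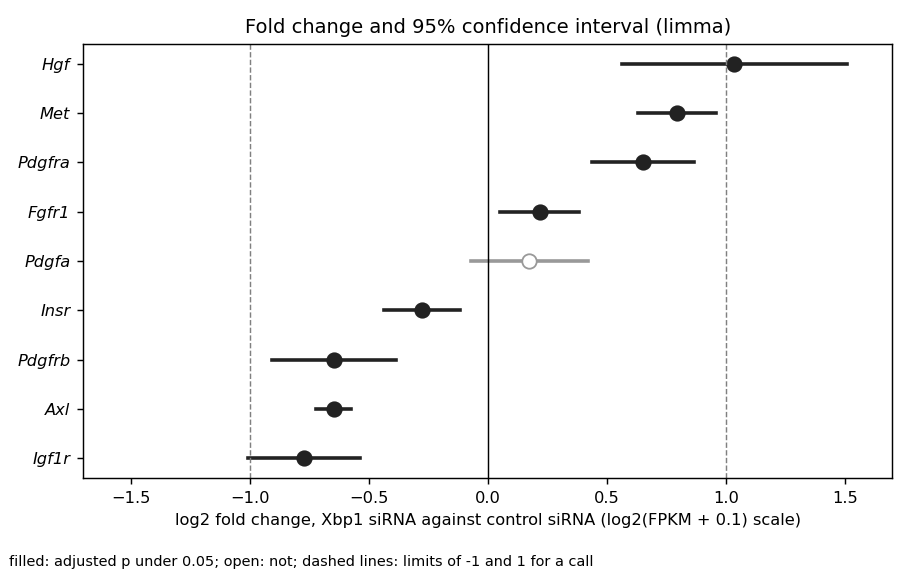
Log2 fold change on the log2(FPKM + 0.1) scale with its 95% confidence interval from limma, 1 row per gene. Filled points passed an adjusted p of 0.05, dashed lines mark log2 fold changes of -1 and 1, and values run from 1.04 for *Hgf* to −0.77 for *Igf1r*.

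*Hgf*, the ligand of MET, had 0.655, 0.649 and 0.623 FPKM in control replicates 1, 2 and 3, and 1.56, 1.16 and 1.59 FPKM in *Xbp1* siRNA replicates 1, 2 and 3. All 3 silenced libraries were above all controls, and replicate 2 was the lowest of them. The mean rose from 0.642 ± 0.0173 to 1.43 ± 0.238 FPKM (SD, n = 3 each), to 223% of the control, with a log2 fold change of 1.04 (95% confidence interval 0.56 to 1.51, adjusted p = 0.00528, limma). The fold lies close to the limit for a call. Leaving out *Xbp1* siRNA replicate 1 gave 0.97 and leaving out replicate 3 gave 0.96, and a pseudocount of 1 gave 0.56, so the gene was no longer called, while the adjusted p stayed at 0.0253 or below in all 14 alternatives. The log2(FPKM + 0.1) scale understates the change of weakly expressed genes, and *Hgf* is the weakest of the 9 tested genes, above only 16.5% of the genes tested in control cells. The number of fragments behind it could not be recovered from the FPKM values, so its counting error is unknown.

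*Met*, the receptor of HGF, rose as well. It had 5.75, 5.55 and 5.81 FPKM in the controls and 10.2, 9.64 and 10.1 FPKM in the silenced libraries. The spread within each group was small beside the distance between them. The mean rose from 5.70 ± 0.138 to 9.97 ± 0.295 FPKM (SD, n = 3 each), to 175% of the control, with a log2 fold change of 0.80 (95% confidence interval 0.63 to 0.96, adjusted p = 1.25e-04, limma). It remained between 0.71 and 0.82 under all alternatives. Per length, *Met* was 8.88 ± 0.406 times as abundant as *Hgf* in the controls and 7.07 ± 1.08 times in the silenced libraries (SD, n = 3 each).

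The enzymes and partners around HGF and MET were taken from a list of 16 genes, of which 11 were tested. Of these, 7 rose and 0 fell, beside 20.2% and 20.2% of all genes tested. The list was chosen with earlier results of these data known. At an unadjusted p under 0.05 (limma) 8 were higher and 0 lower, with no share of all genes to set beside them. The median log2 fold change was 0.32, beside 0.01 over all genes tested. *St14*, which encodes matriptase, an activator of pro-HGF, had 8.95, 9.09 and 8.04 FPKM in the controls and 22.1, 22.0 and 22.1 FPKM after silencing, a log2 fold change of 1.33 (limma, adjusted p = 7.96e-06). *Plau*, which encodes the urokinase-type plasminogen activator, had 1.62, 1.72 and 2.29 FPKM and then 6.49, 7.65 and 6.57 FPKM, a log2 fold change of 1.84 (limma, adjusted p = 9.33e-05). These were the 2 called genes of the list, where 2.69% of all genes tested were called higher, both with groups that did not overlap. The other serine proteases *Hpn* (hepsin) and *Plg* (plasminogen) were listed at 0 in every library, and *Hgfac*, the HGF activator, reached at most 0.189 FPKM; these 3, and *Spint1* and *Pdgfd* below, were chosen after their values were seen.

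Among the protease inhibitors that restrain HGF activation, *Spint1* was listed at 0 and *Spint2* was weak, with 0.378 ± 0.223 and 0.465 ± 0.159 FPKM (SD, n = 3 each, adjusted p = 0.596, limma). *Mst1r*, which encodes RON, the relative of MET, rose from 16.3 ± 0.768 to 20.4 ± 2.38 FPKM (SD, n = 3 each), a log2 fold change of 0.32 (limma, adjusted p = 0.0218). It did not pass without control replicate 2 (adjusted p = 0.0719) or in limma without a trend (0.0520). The ratio of *Met* to *Mst1r* was 0.342, 0.361 and 0.350 in the controls and 0.441, 0.504 and 0.529 after silencing. Thus *Met* gained on its relative in each silenced library, while staying below it. The other genes of the list that rose were *Cd44*, a co-receptor, *Adam17*, a shedding protease, and the negative regulators *Lrig1* and *Ptprj*, with log2 fold changes between 0.30 and 0.41. They are named because they complete the count, after their values were seen.

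*Axl*, a receptor of the TAM family, was the most abundant of the genes described. It had 154, 154 and 149 FPKM in the controls and 98.9, 97.4 and 95.6 FPKM after silencing. The groups were far apart, with a spread of a few FPKM within each. The mean fell from 153 ± 2.76 to 97.3 ± 1.67 FPKM (SD, n = 3 each), to 63.8% of the control, a log2 fold change of −0.65 (standard error 0.031, adjusted p = 7.96e-06, limma). The value lay between −0.66 and −0.56 under all alternatives.

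Of the relatives of *Axl*, *Tyro3* rose and *Mertk* did not pass the test. *Tyro3* went from 17.2, 17.9 and 16.6 FPKM to 27.3, 23.8 and 24.2 FPKM, a log2 fold change of 0.54 (limma, adjusted p = 6.20e-04). *Mertk*, at 0.887 ± 0.175 and 1.21 ± 0.192 FPKM (SD, n = 3 each), had an adjusted p of 0.178 (limma). *Gas6*, the ligand that binds AXL most strongly, was listed at 0 in every library. The ratio of *Axl* to *Tyro3* was 8.97, 8.59 and 8.98 in the controls and 3.63, 4.09 and 3.95 after silencing, a log2 difference of −1.19. *Axl* thus remained the most abundant TAM receptor transcript in every library, by a smaller margin. *Pros1* (protein S, a TAM ligand), named after its values were seen since it completes the count of 2 genes that rose among 3 tested (20.2% of all genes tested rose), went from 22.9 ± 0.225 to 28.1 ± 0.801 FPKM (SD, n = 3 each).

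The 2 PDGF receptors moved in opposite directions. *Pdgfra* had 4.73, 5.17 and 4.53 FPKM in the controls and 7.59, 8.05 and 7.17 FPKM after silencing. *Pdgfrb* had 4.69, 4.37 and 4.22 FPKM and then 2.58, 2.80 and 3.00 FPKM. In the controls the 2 receptors overlapped, and after silencing every *Pdgfra* value was above every *Pdgfrb* value. *Pdgfra* rose to 158% of the control, with a log2 fold change of 0.65 (95% confidence interval 0.44 to 0.86, adjusted p = 0.00111, limma). *Pdgfrb* fell to 63.1% of it, with a log2 fold change of −0.65 (95% confidence interval −0.91 to −0.39, adjusted p = 0.00289, limma). The log2 fold changes stayed between 0.57 and 0.70 and between −0.72 and −0.52 under all alternatives.

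The ratio of *Pdgfra* to *Pdgfrb* carries this shift within each library, free of scaling between libraries. It was 1.01, 1.18 and 1.07 in the controls and 2.94, 2.88 and 2.39 after silencing, a log2 difference of 1.33. For *Pdgfra* the values fell on whole fragments, 146, 150 and 137 in the controls and 240, 244 and 257 after silencing. The counting error of a library was then 6.2% to 8.5%, less than the difference between the groups. This error leaves out the variation between samples.

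Of the PDGF ligands, *Pdgfa* did not pass the test and *Pdgfc* rose. *Pdgfa*, whose product binds the alpha receptor as a dimer, had 14.6, 11.0 and 12.0 FPKM in the controls and 13.5, 14.2 and 14.4 FPKM after silencing. Control replicate 1 was the highest of all 6, so the groups overlapped. The log2 fold change was 0.18 (95% confidence interval −0.07 to 0.42, adjusted p = 0.229, limma), and it was 0.29 without control replicate 1 (adjusted p = 0.0229). *Pdgfc*, a further ligand of the alpha receptor, rose from 9.68 ± 0.818 to 11.8 ± 0.563 FPKM (SD, n = 3 each), a log2 fold change of 0.29 (limma, adjusted p = 0.0255). Its adjusted p was 0.0622 without control replicate 1, 0.0584 without control replicate 3, and 0.0833 and 0.0603 without *Xbp1* siRNA replicates 2 and 3. *Pdgfb* and *Pdgfd*, the ligands that bind the beta receptor, were listed at 0 in every library.

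*Fgfr1*, the main FGF receptor kinase of these cells by level, had 24.2, 26.5 and 29.2 FPKM in the controls and 30.0, 31.2 and 31.6 FPKM after silencing. The groups did not overlap, but the highest control was within 1 FPKM of the lowest silenced library. The log2 fold change was 0.22 (95% confidence interval 0.05 to 0.38, adjusted p = 0.0423, limma). Whether *Fgfr1* passed rests on the setting. Without control replicates 1 and 2 in turn its adjusted p (limma) was 0.0915 and 0.0981. Without *Xbp1* siRNA replicates 1, 2 and 3 it was 0.0672, 0.103 and 0.119. It was 0.0518 with no filter and 0.0885 without a trend. The log2 fold change of *Fgfr1* lay between 0.15 and 0.29 under all alternatives. *Fgfr3* had 2.58 ± 0.207 and 2.56 ± 0.260 FPKM (SD, n = 3 each, adjusted p = 0.955, limma). *Fgfr2* was below the filter, at 0.0260, 0.0277 and 0.0395 FPKM and then 0.221, 0.106 and 0.163 FPKM, groups that did not overlap.

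Of the FGF ligands, *Fgf2* was listed at 0 throughout, and *Fgf1* was above 0 in 1 library only, with 0.0581 FPKM. *Fgf7*, named after its values were seen, had 0.770 ± 0.151 and 1.13 ± 0.159 FPKM (SD, n = 3 each, adjusted p = 0.111, limma), and *Fgf22*, likewise chosen, ranged from 0 to 2.54 FPKM. Of the 28 matched genes of the FGF list, 10 were at 0 in every library and 8 were tested. Of these 0 rose and 2 fell by limma, beside 20.2% of all genes tested in each direction. The numbers were the same at an unadjusted p under 0.05. The 2 were *Frs2*, the adaptor of the FGF receptors, with a log2 fold change of −0.30 (adjusted p = 0.0133), and *Fgf13*, an intracellular member of the family that is not secreted, with −0.64 (adjusted p = 0.00841), both named after their values were seen.

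The insulin and IGF-1 receptors fell together, to different extents. *Igf1r*, which encodes the IGF-1 receptor, had 6.43, 5.64 and 6.60 FPKM in the controls and 3.57, 3.46 and 3.75 FPKM after silencing. It fell to 57.7% of the control, a log2 fold change of −0.77 (95% confidence interval −1.01 to −0.54, adjusted p = 7.64e-04, limma), the largest decrease among the genes described. *Insr*, which encodes the insulin receptor, had 19.2, 18.9 and 17.7 FPKM and then 14.4, 15.1 and 16.4 FPKM. Its groups did not overlap, and the lowest control, 17.7, and the highest silenced library, 16.4, were replicate 3 of each group. It fell to 82.5% of the control, a log2 fold change of −0.28 (95% confidence interval −0.44 to −0.12, adjusted p = 0.0141, limma), and the adjusted p was at most 0.0483 when single libraries were left out. *Igf1r* values corresponded to 320, 264 and 322 fragments in the controls and 182, 169 and 217 after silencing, with a counting error of 5.6% to 7.7%.

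The ratio of *Igf1r* to *Insr* was 0.335, 0.298 and 0.374 in the controls and 0.248, 0.228 and 0.228 after silencing. *Insr* was therefore the more abundant of the pair in every library, and the ratio was lower in each silenced library than in any control. Both receptors form hybrids, and *Igf2r*, the kinase-free receptor that clears IGF-2, is counted beside them. *Igf2r* rose from 45.2 ± 0.337 to 60.0 ± 1.59 FPKM (SD, n = 3 each), a log2 fold change of 0.41 (limma, adjusted p = 1.27e-04). The ratio of *Igf2r* to *Igf1r* went from 7.29 ± 0.572 to 16.7 ± 0.986 (SD, n = 3 each).

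Downstream of both receptors, the adaptor *Irs1* rose from 16.3 ± 0.552 to 21.7 ± 0.158 FPKM (SD, n = 3 each), a log2 fold change of 0.41 (limma, adjusted p = 5.15e-04). *Irs2* had 3.48 ± 0.178 and 3.44 ± 0.427 FPKM (SD, n = 3 each) and did not pass the test (adjusted p = 0.922, limma). The ligands *Igf1* and *Igf2* were listed at 0 in every library. Of the 8 tested genes of the list, 3 rose and 1 fell, where 20.2% of all genes tested rose and 20.2% fell. *Igfbp4*, the binding protein that fell, was the most abundant of them at 1010 ± 44.2 FPKM in the controls and 764 ± 8.78 FPKM after silencing (SD, n = 3 each), and it is named after its values were seen.

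**Figure D3:**
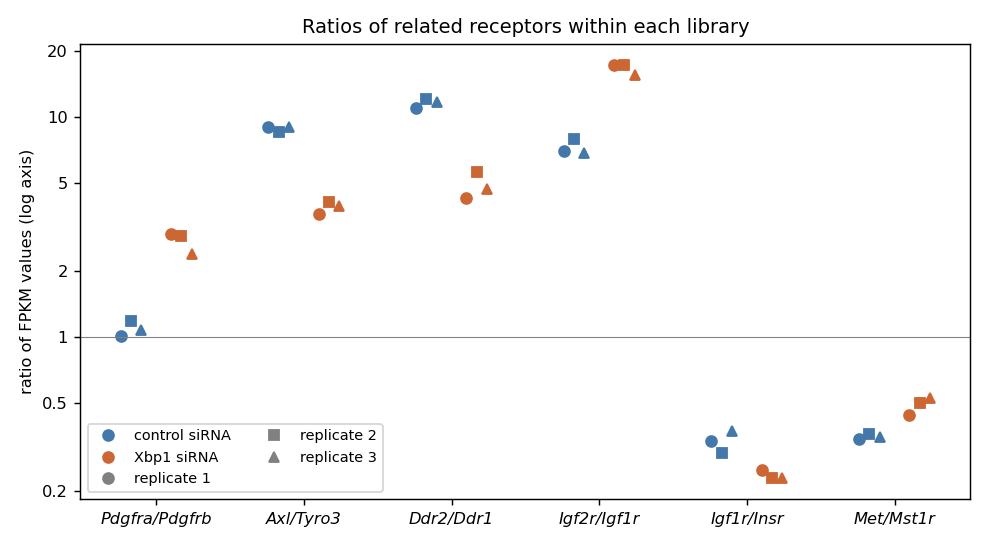
Ratio of the FPKM values of related receptors within each library (log axis), for control siRNA (blue) and *Xbp1* siRNA (orange), with a marker for each replicate. The groups are apart in all 6 ratios shown; *Pdgfra*/*Pdgfrb* lies between 1.01 and 1.18 in the controls and between 2.39 and 2.94 after silencing.

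Of 9 such ratios computed, the groups did not overlap in any. The exact two-sided permutation test gave p = 0.1 for each, the smallest that 3 libraries against 3 allow, and 0.1 after Benjamini-Hochberg adjustment over the 9. Where the genes of a pair moved apart without overlap, as *Pdgfra* and *Pdgfrb* did, this follows from their single values and is no separate support. The pairs were not fixed in advance, and the share among other pairs of genes was not computed. Opposite moves of related receptors were also seen in the collagen receptors, which are not among the genes described. *Ddr2* fell from 159 ± 7.46 to 107 ± 3.54 FPKM (SD, n = 3 each), and *Ddr1* rose from 13.8 ± 0.424 to 22.2 ± 2.37 FPKM (SD, n = 3 each). Both were named after their values were seen.

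By level the order in the controls was *Axl*, *Fgfr1*, *Insr*, *Pdgfa*, *Igf1r*, *Met*, *Pdgfra*, *Pdgfrb* and *Hgf*. Neighbours in this order did not overlap, except *Igf1r* with *Met* and *Pdgfra* with *Pdgfrb*. After silencing *Met* and *Pdgfra* stood above *Igf1r*, and *Insr* and *Pdgfa* overlapped. The control level of *Axl* was above that of 95.3% of the genes tested, and those of the other genes but *Hgf* lay above 34.7% to 70.8%.

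The 7 receptors summed to 219, 220 and 217 FPKM in the controls and to 167, 168 and 168 FPKM after silencing. *Axl* accounts for the lower total, since the sum without it was 65.0, 66.2 and 68.0 FPKM and then 68.3, 70.3 and 72.1 FPKM. The share of *Axl* went from 70.3%, 70.0% and 68.7% to 59.2%, 58.1% and 57.0%. *Axl* thus held most of the summed FPKM of these 7 receptors in both groups, and less of it after silencing. Over all receptor tyrosine kinases outside the ErbB family, *Ddr2* had the higher mean in both groups. Of 48 receptor tyrosine kinases outside the ErbB family that were matched, the 7 held 43.9% to 45.3% of the summed FPKM in the controls and 40.3% to 41.1% after silencing.

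Of these 48 kinases, 13 were at 0 in every library and 16 had a control mean of at least 1 FPKM. Of the 22 tested, 7 rose and 5 fell, where 20.2% of all genes tested moved in each direction. With the limit on the fold, 1 was called higher and 0 lower, where 2.69% and 2.5% of all genes tested were. The called gene was *Ror1*, a receptor for WNT5A, with 0.398, 0.258 and 0.460 FPKM in the controls and 1.12, 1.13 and 1.09 FPKM after silencing. These were 23, 14 and 26 fragments and then 66, 64 and 73, with a counting error of 11.7% to 26.7%. *Ror1* had a log2 fold change of 1.38 (limma, adjusted p = 0.00376). With a pseudocount of 1 its log2 fold change was 0.62, and it was then not called.

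**Figure D4:**
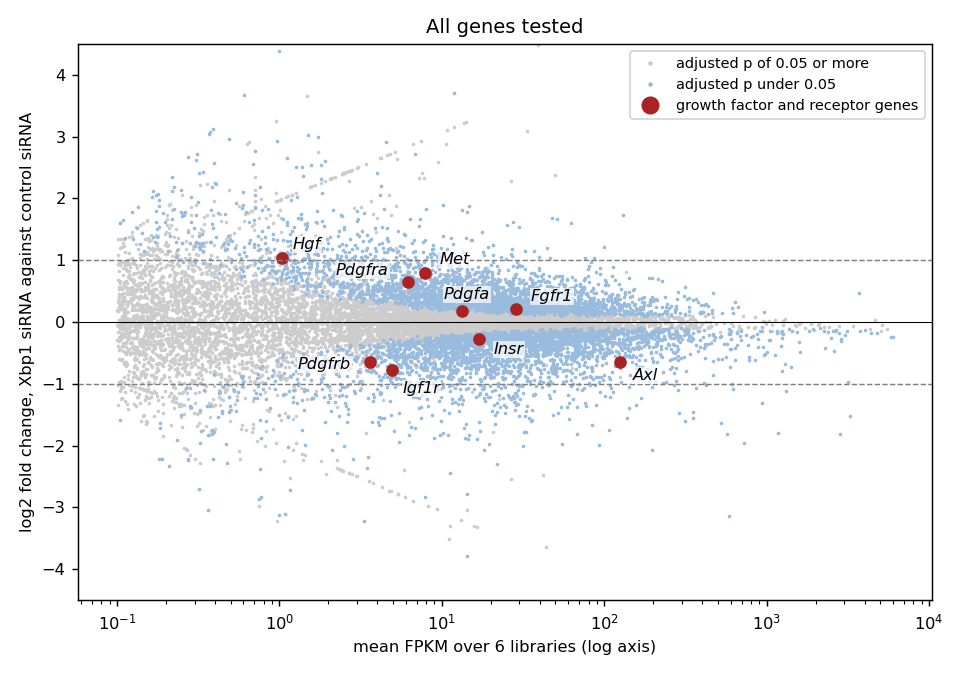
Log2 fold change against mean FPKM (log axis) for the 14361 genes tested, with those past an adjusted p of 0.05 in light blue and the 9 growth factor and receptor genes in red; dashed lines mark -1 and 1, and 13 genes lie beyond the plotted range of -4.5 to 4.5. *Hgf* lies at the weakly expressed end with a log2 fold change of 1.04, and *Axl* at the abundant end with −0.65.

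The enzymes that mature the receptors and the adaptors that serve them were counted in the same way. Of the proprotein convertases, which cut the precursors of MET, IGF1R and INSR, 3 were tested and 2 rose, beside 20.2% of all genes tested. *Furin* rose from 29.6, 30.8 and 29.3 FPKM to 39.4, 36.4 and 34.1 FPKM, a log2 fold change of 0.29 (limma, adjusted p = 0.00692), while *Igf1r* and *Insr* fell and *Met* rose. *Pcsk7*, the other that rose, had a log2 fold change of 0.47 (limma, adjusted p = 2.19e-04) and is named after its values were seen.

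Of 17 shared adaptors, all tested, 4 rose and 5 fell, with a median log2 fold change of 0.00, beside 20.2% of all genes tested in each direction. *Grb2*, the adaptor that links receptors to RAS, had 69.4 ± 0.726 and 71.5 ± 3.99 FPKM (SD, n = 3 each, adjusted p = 0.517, limma), and *Gab1*, the docking protein of MET, 5.09 ± 0.450 and 5.35 ± 0.956 FPKM (SD, n = 3 each, adjusted p = 0.793, limma). Among those that fell, and named after their values were seen, were *Cbl*, the ubiquitin ligase that removes active receptors from the surface, with a log2 fold change of −0.70 (limma, adjusted p = 1.17e-04), and *Shc1* with −0.43 (limma, adjusted p = 9.75e-05). The 4 that rose, named likewise, were *Cblb*, a relative of *Cbl*, with a log2 fold change of 0.43 (limma, adjusted p = 0.0225), *Ptpn11* with 0.31, *Pik3r2* with 0.29 and *Plcg1* with 0.11.

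Of the 10 other receptor tyrosine kinases tested beyond the families above, 2 rose and 1 fell, and of 15 tested ligands of such receptors, 5 rose and 2 fell, again beside 20.2% of all genes tested in each direction. *Kitlg*, the ligand of KIT, with a log2 fold change of 0.90 (limma, adjusted p = 0.00305), and *Vegfa*, with −0.51 (limma, adjusted p = 1.25e-04), were the largest in each direction among these ligands that passed the test and were chosen after their values were seen. Over the 9 lists, 76 of 149 matched genes were tested, 26 rose and 11 fell, against 20.2% of all genes tested in each direction, and the median log2 fold change was 0.16. With the limit on the fold, 3 were called higher and 0 lower, against 2.69% and 2.5% of all genes tested. At an unadjusted p under 0.05 (limma) 29 were higher and 14 lower, a limit at which the share of all genes was not computed.

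**Figure D5:**
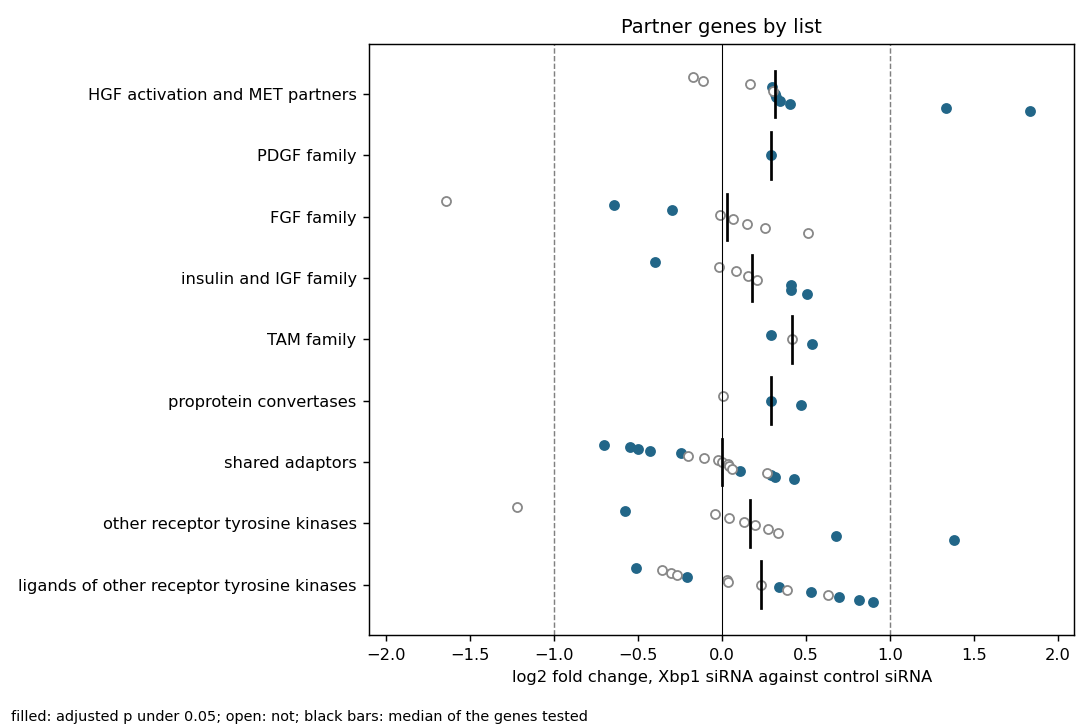
Log2 fold change of each tested gene in the 9 partner lists, with 1 row per list; filled points passed an adjusted p of 0.05, open points did not, and black bars mark the median of each list. The list around HGF and MET holds *Plau* at 1.84 and *St14* at 1.33, and the shared adaptors spread on both sides of a median of 0.00.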

How the data were processed

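RNA-Seq libraries of 6 samples, 3 per group as the sample titles give them, were analysed. The authors deposited FPKM values, 1 file per library, which are not counts. The submitters' processing notes name HISAT2 2.1.0 and Cuffdiff 2.2.1. The genome build is not given in the sources used here, so no coordinates are printed, and a RefSeq table (CriGri-PICRH-1.0) served for names only. FPKM is relative to all mapped fragments of a library, so a change in abundant genes can shift others. The authors' methods name DESeq2 on counts; here limma 3.58.1 in R 4.3.3 (lmFit, eBayes with trend) was run on log2(FPKM + 0.1) for genes averaging 0.1 FPKM or more, with Benjamini-Hochberg adjustment over all genes tested and the authors' limits (adjusted p under 0.05; for a call also a log2 fold change of at least 1 in size). The script was tested on simulated data. Whole fragments were recovered where low FPKM values were multiples of a step within 0.002 fragments. Ratios, sums and figures used Python 3.11.15, numpy 2.4.6, pandas 2.3.3, scipy 1.17.1 and matplotlib 3.10.9.

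The genes and lists were chosen with earlier results of these data known. Named genes are the 10 genes described, *Xbp1*, 18 partners fixed by name, the fixed cell type markers, up to 5 called genes per list, and the 3 genes most like *Hgf* and *Met*. Others are marked as chosen after their values were seen. Other settings tried were no filter or one at 1 FPKM, a pseudocount of 0.01 or 1, scaling by median ratios, quantile normalization, limma without trend, a replicate block, and leaving out each library. The study's own list of changed genes came from these samples and was not used.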

Additional observations from a re-analysis of the deposited data

How the results depend on the processing

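Of 126 values of the 9 genes tested under 14 alternatives, 118 kept their direction and their side of an adjusted p of 0.05, 7, all of *Fgfr1*, no longer passed, 1 of *Pdgfa* passed, and 0 reversed. *Hgf* was not called with a pseudocount of 1 (log2 fold change 0.56) or quantile normalization (0.93), which left 0 of the 9 genes called higher; leaving out each library gave 0 to 1. Over all genes, 114 were called higher and 205 lower with a pseudocount of 1, and 242 higher when genes had to average 1 FPKM; leaving out each library gave 329 to 380 higher and 346 to 369 lower. Over the 9 lists, 1 gene, *Musk* (named after its values were seen), was called lower with no filter, quantile normalization or no trend. Values near 0 reversed: *Gab1* was −0.00457 with quantile normalization, and leaving out each library gave −0.0470 to 0.207 for *Gab1*, −0.0766 to 0.0645 for *Fgfr3*, −0.0867 to 0.0825 for *Irs2* and −0.00184 to 0.0771 for *Grb2*. The cause was not tested. Deviations of same-numbered samples from their group means correlated at −0.029, −0.027 and −0.012, so the numbers were not taken as pairs; with the replicate block 363 genes were called higher and 353 lower, and *Hgf* had an adjusted p of 0.0174. No scaling moved the median of all genes by as much as 0.01. Fragment numbers were recovered for *Pdgfra* and *Igf1r* only among the genes described, so the counting error of the others is unknown; of 1633 rows with a mean of 0.5 to 2 FPKM, the range of *Hgf*, 871 gave whole fragments, with a median of 14 in control replicate 1.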

Other observations

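Over the 6 libraries, the values of *Hgf* on the log2(FPKM + 0.1) scale were most like those of *Cd320* (Pearson's r 0.998), *Smg5* (0.997) and *Sptlc2* (0.997), and those of *Met* were most like those of *Hivep1* (0.9997), *Actn3* (0.9996) and *Gltp* (0.9994), among 9372 genes averaging at least 1 FPKM whose symbol stands on 1 row and is not a LOC number. The libraries form 2 groups, so these values mostly express the difference between them, and they are given as a description. *Cd320*, the receptor for the vitamin B12 carrier transcobalamin, went from a mean of 13.6 to 19.7 FPKM, *Smg5*, a factor of nonsense-mediated mRNA decay, from 44.5 to 53.1 FPKM, and *Sptlc2*, a subunit of serine palmitoyltransferase, from 22.3 to 30.1 FPKM. *Hivep1*, a zinc finger transcription factor, went from a mean of 5.92 to 13.8 FPKM, *Actn3*, an alpha-actinin, from 4.21 to 16.0 FPKM, and *Gltp*, the glycolipid transfer protein, from 12.2 to 29.1 FPKM.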
